A study of Oryza sativa with 12 samples.

Results

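A group of 90 probe sets stood above every parental array in both the leaf and the root of an F1 hybrid between the rice cultivars C bao and Jamaica. They were chosen from 57258 rice probe sets by 1 measure, the gap: the lower of the 2 F1 arrays minus the highest of the 4 parental arrays of the same tissue, on log2(signal + 16). A gap of 0.7 or more was required in leaf and in root. This left 97 probe sets (0.169%), of which 7 were then set aside by gene name (DREB1B, DREB1E, CBF3, CML15, CML31, HSF1 and JAZ10). The position of the F1 above its parents is therefore how the 90 were chosen, and it is given below as a description without a test.

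Transcripts were measured on 12 Affymetrix rice arrays in 6 groups of 2: C bao, Jamaica and their F1, each as leaf and as root. Leaves came from plants 4 weeks old and roots from plants 7 days old, so tissue and age cannot be told apart. No treatment is given in the labels, which also do not say which cultivar was the seed parent or whether the 2 replicates of a group came from separate plants. The p-values below thus measure only the spread between these samples, which may be technical, and the small number of arrays limits their precision.

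Hybrid weakness, named in the title of the series, is a condition in which a cross between normal parents gives plants of poor vigour. In several plant species it goes together with an immune response that runs without a pathogen. Rapidly inducible plant genes include transcription factors, calcium sensors, phosphatases and hormone enzymes whose transcripts rise after wounding, cold, drought or contact with microbial elicitors. Abscisic acid and jasmonate are the hormones best known in such responses, the first in water deficit and the second in wounding and defence.

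Of the 90 probe sets, 64 were paired with exactly 1 gene, which gave 62 distinct genes, 1 was paired with several genes and 25 are not listed in the annotation used here. Only 5 members carried a name other than a locus number, namely BHLH148, ABA8OX1, PP2C32, EL2 and GDH2. The remaining members are given by locus number or, where no single gene was paired with the probe set, by its rank from 1 (largest) to 90 on the smaller of its leaf and root gaps, and no function is stated for them.

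The leaf markers were high in leaf (mean log2 signal 12.8 to 13.7 over 7 genes) and lower in root (8.38 to 10.1), and the 6 root markers stood at 10.3 to 10.9 in root and 7.18 to 8.24 in leaf. Over the 42974 probe sets tested below, the arrays of F1 leaf formed the pair least alike (r = 0.924). Jamaica leaf followed with 0.944, and the other 4 pairs had 0.966 to 0.968. Over 17 genes of dividing cells the mean log2 signal of the F1 leaf pair was 9.14 (replicate 1) and 6.18 (replicate 2), with 8.74 and 9.07 in C bao leaf and 5.97 and 6.84 in Jamaica leaf. In root it stayed within 8.81 to 9.48 on all 6 arrays. The part of these differences in the results was not tested. In these bulk samples, fewer cells of a type and less RNA per cell cannot be told apart.

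ABA8OX1 encodes an abscisic acid hydroxylase, a cytochrome P450 that starts the breakdown of the hormone. Its probe set gave signals of 830.2 and 1179 in C bao leaf, 2765 and 1883 in Jamaica leaf and 4632 and 5162 in F1 leaf. In root the signals were 1109.7 and 825 in C bao, 965 and 1038 in Jamaica and 4732 and 5713 in the F1. Both F1 arrays of each tissue lay above the 4 parental arrays, and in leaf the nearest parental array was Jamaica replicate 1. The F1 mean was 2.13-fold that of the higher parent in leaf and 5.13-fold in root, where every fold is taken between group means of log2(signal + 16) and so is understated for dim probe sets.

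BHLH148, a basic helix-loop-helix transcription factor that binds the JAZ repressors of jasmonate signalling in rice, was read by 1 member probe set. Leaf signals were 505 and 448 in C bao, 1061 and 1266 in Jamaica and 2889.5 and 3099.5 in the F1. Root signals were 133 and 269.9 in C bao, 213.5 and 245 in Jamaica and 1694.5 and 2205 in the F1. The F1 leaf mean was 2.56-fold the Jamaica mean, the higher of the parents, and the F1 root mean was 7.96-fold the higher parental mean, which was also that of Jamaica. Set against the mean of both parents, the fitted log2 difference was 1.99 in leaf and 3.12 in root. The members were chosen for F1 signals above the parents, so these values are descriptive only.

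PP2C32 belongs to the protein phosphatases 2C, which remove phosphate from serine and threonine residues and whose best known members restrain abscisic acid signalling. C bao leaf gave 1609 and 1709, Jamaica leaf 1522 and 2108 and F1 leaf 4176 and 5222. The corresponding roots gave 601 and 591, 498 and 645 and 2353 and 2268. All groups were lower in root than in leaf, and the F1 mean was 2.59-fold the higher parental mean in leaf and 3.8-fold in root.

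EL2 encodes a cyclin-dependent kinase inhibitor of rice that was found as a transcript induced by fungal elicitors. Its signals were 929.9 and 676 in C bao leaf, 383 and 929 in Jamaica leaf and 1884 and 1567.5 in F1 leaf. In root they were 338 and 380.0, 476 and 469 and 2493 and 2875 in the same order. The Jamaica leaf arrays were far apart, one near the level of C bao and the other below it. The F1 reached 2.14-fold the higher parental mean in leaf and 5.52-fold in root. A separate probe set of EL2 had a leaf gap of 0.64, just short of the threshold, and a root gap of 1.75.

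GDH2 encodes a glutamate dehydrogenase, which interconverts glutamate and 2-oxoglutarate with ammonium. Its signals in leaf were low, 167 and 151.5 in C bao, 129 and 135 in Jamaica and 361 and 604 in the F1. Roots of C bao gave 132 and 109.5 and those of Jamaica 138 and 172, whereas F1 roots gave 1862 and 2038. The F1 mean was 11.6-fold the higher parental mean in root and 2.76-fold in leaf. A further pair of probe sets for GDH2 gave root gaps of 1.40 and 1.82 but leaf gaps of -0.07 and 0.08, so the leaf difference was not seen at that size on them.

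**Figure D1:**
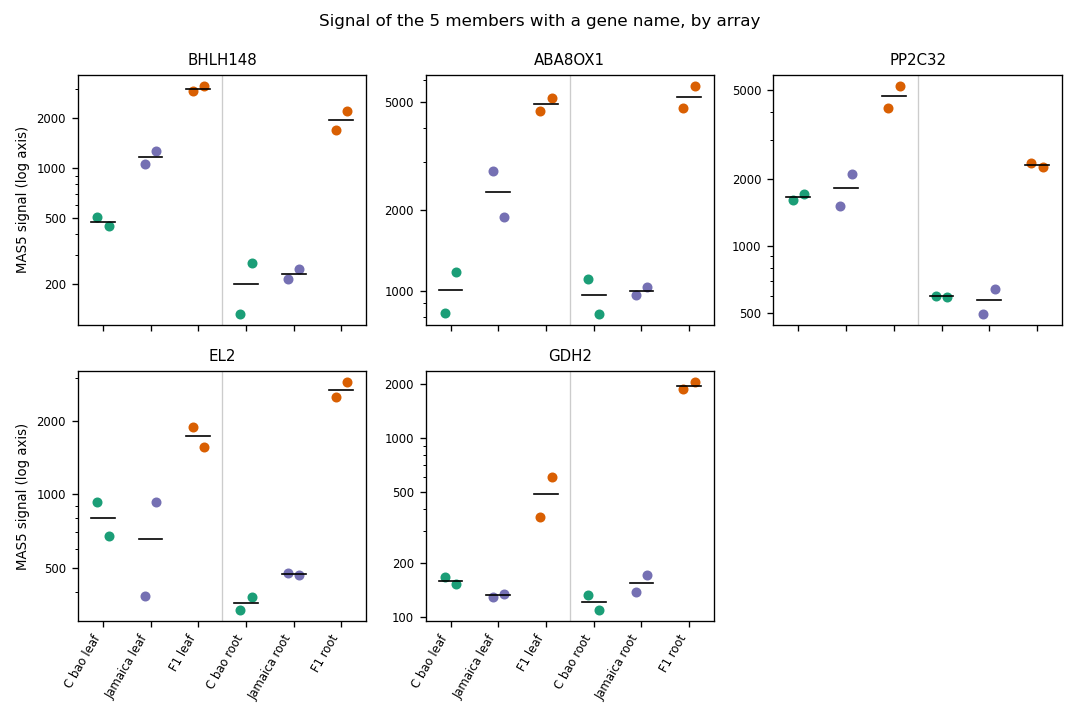
MAS5 signal (log axis) of the 5 members with a gene name on each of the 12 arrays, with leaf groups left and root groups right of the grey line. Points are single arrays and bars the mean of the 2 arrays of a group. The F1 points lie above all parental points in every panel, and for GDH2 the F1 stands far higher in root than in leaf.

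Members with the largest smaller gap, that is, those farthest above the parents in the tissue where they were less far, were mostly known by locus number. LOC4347266 came first, with signals of 34.0 and 87.5 in C bao leaf, 15.0 and 48.6 in Jamaica leaf and 504 and 1147 in F1 leaf. Its root signals were 12.2 and 27.8, 1.8 and 37.0 and 669 and 631 in the same order. Parental root signals of this gene were near the bottom of the scale. Its gap was 2.33 in leaf, the largest of the 90, and 3.61 in root.

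LOC4325662 ranked next, with signals of 1974 and 1429.5 in C bao leaf, 857 and 1955 in Jamaica leaf and 9212 and 11515 in F1 leaf. Root arrays gave 400.5 and 408, 357 and 497 and 5658 and 6853. This is 6.08-fold the higher parental mean in leaf and 14.3-fold in root. The probe set ends in _x_at, the suffix for probes that can match other transcripts, and a second probe set of the gene had gaps of only -0.47 and 0.15.

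The probe set of rank 3, which has no gene in the annotation, gave 161 and 105 in C bao leaf, 68.1 and 159 in Jamaica leaf and 732 and 954 in F1 leaf. Root values were 56.8 and 36.9, 74.5 and 17.9 and 1259.7 and 1029. The F1 was 18.6-fold the higher parental mean in root and 5.82-fold in leaf. For LOC4346787 the parental leaf arrays ran from 59.6 to 123 against 542 and 576 in the F1, and the parental root arrays from 55.9 to 113 against 1290.4 and 1839. In LOC4335798 the parental roots were almost empty (5.8 to 25.4) and the F1 roots gave 435 and 294.5. Leaves of this gene were higher, 37.3 to 411 over the parental arrays and 1358 and 1401.5 in the F1.

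In LOC4347744 the gap was larger in leaf (2.19) than in root (1.78), and in LOC4334017 and the probe set of rank 6 it was slightly larger in leaf (2.0 against 1.84, and 2.0 against 1.91). LOC4347744 had parental signals of 213 to 316 in leaf and 540.1 to 931 in root, and F1 signals of 1496 and 1612 in leaf and 3241.5 and 3768 in root. LOC4334017 gave 919 and 898 in F1 leaf and 813 and 1033 in F1 root, over parental ranges of 29.5 to 213 and 95.6 to 215. For the probe set of rank 6 the F1 signals were 3034 and 3801 in leaf and 2255 and 2369 in root, over 318 to 746 and 436 to 589. In all 3 the groups were well apart, with leaf gaps between 2.0 and 2.19.

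Rank 4, the member paired with several genes, had gaps of 2.02 in leaf and 2.05 in root, with F1 signals of 1614 and 2154 and 1531.5 and 1853. LOC4327895 had gaps of 1.80 and 1.83, with F1 signals of 1299 and 1988 in leaf and 766 and 776 in root. A second probe set of this gene had gaps of only -0.12 in leaf and 0.48 in root. Rank 7, which is not listed in the annotation, had gaps of 1.86 in leaf and 2.44 in root, and reached 3931 and 5013 in F1 leaf and 2711 and 2674 in F1 root, where no parental array exceeded 1072 in leaf or 481 in root. In LOC4326920 the 4 parental roots lay within 225 to 231, a narrow band, and the F1 roots gave 1250.2 and 1527.

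**Figure D2:**
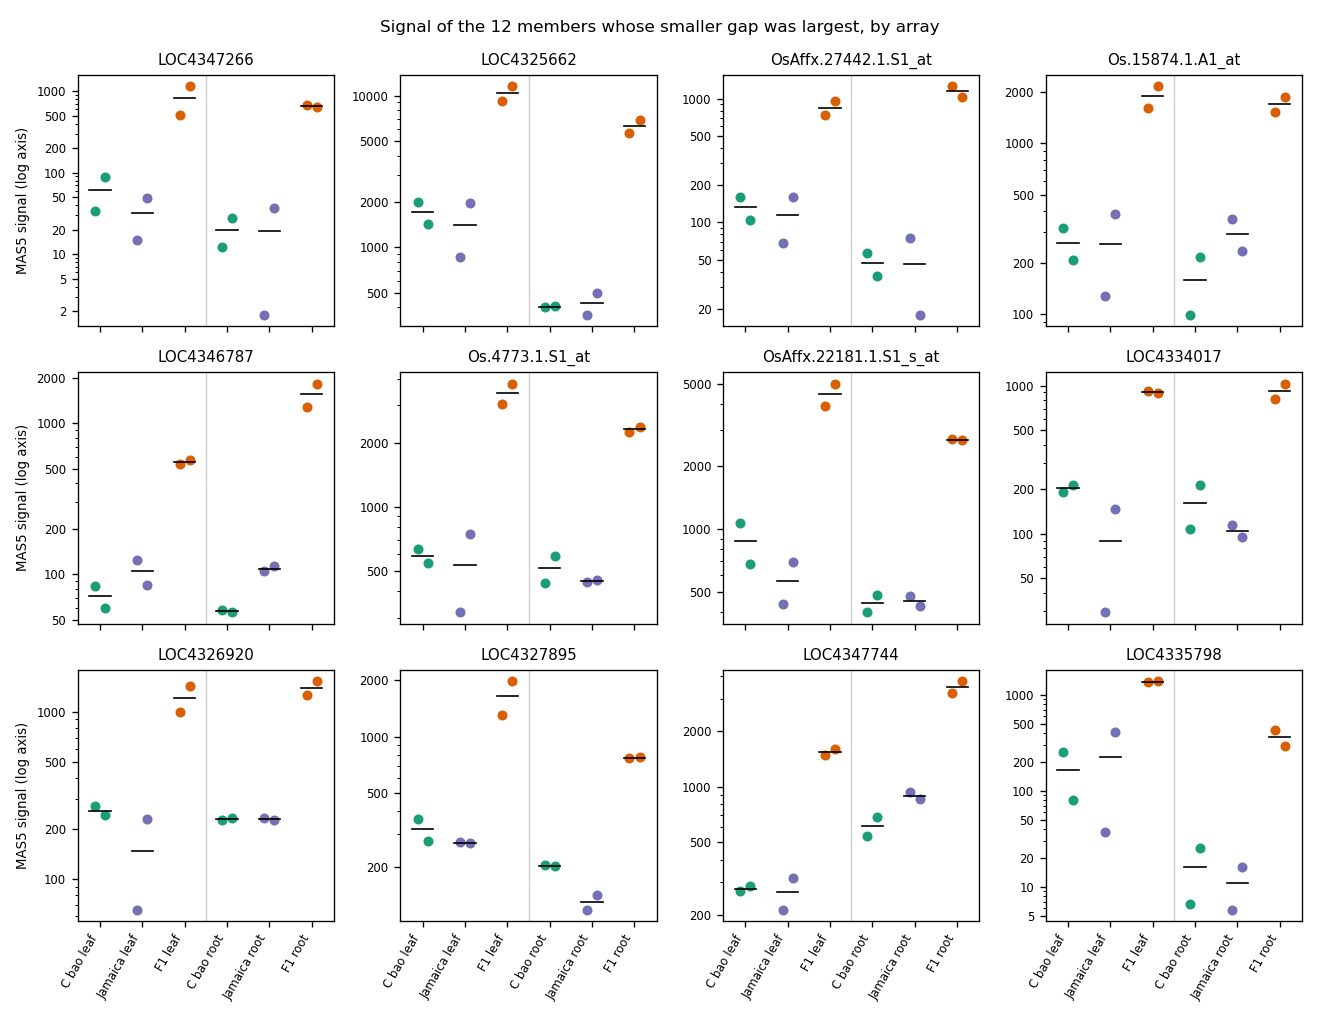
MAS5 signal (log axis) of the 12 members whose smaller gap was largest, on each of the 12 arrays. Panels run in rank order from the top left, points are single arrays and bars the mean of 2. The F1 points of leaf and of root lie above all parental points of that tissue in each panel. The parental root points of LOC4347266 and LOC4335798 are among the lowest.

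Over all 90 members the gap ran from 0.71 to 2.33 in leaf, with a median of 1.04, and from 0.72 to 5.88 in root, with a median of 1.78. It was larger in root for 75 members and larger in leaf for 15. Root gaps were above 0 for 16.1% of all rice probe sets and leaf gaps for 5.54%, so root gaps ran higher beyond the members too. Over all rice probe sets the median signal was 62.5 and 64.15 in F1 root and 50.1 to 51.8 in parental root. In leaf it was 52.5 and 52.4 in the F1 and 52.5 to 56.8 in the parents. The part of this in the member gaps was not tested. The F1 mean exceeded the mean of the higher parent by 0.90 to 3.43 on the log2 scale in leaf (median 1.53) and by 0.89 to 6.64 in root (median 2.01). A rise of 4-fold or more was reached by 21 members in leaf and 45 in root, and one of 8-fold or more by 2 and 11. The parental array that came closest was one of C bao for 49 members and of Jamaica for 41 in leaf, and of C bao for 37 and of Jamaica for 53 in root.

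The largest root gap belonged to a member outside the 12. The probe set of rank 51 gave 2.6 to 33.4 over the 4 parental root arrays and 2888 and 3757 in the F1, a gap of 5.88. Its leaf gap was only 0.91, with 157 and 481 in Jamaica leaf and 956 and 919 in F1 leaf. The next root gap was that of rank 56 (4.01), followed by LOC4347266 and by rank 14 (3.59). Rank 14 gave 3.4 to 102 over parental roots and 1750.5 and 1404 in F1 roots. F1 leaves of the same probe set gave 2612 and 7198.5, so its F1 leaf arrays were well apart although both lay above the parental range of 332 to 835.

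Just inside the threshold, the smaller gap was 0.71 for LOC4345706, 0.71 for LOC4323907 and 0.71 for LOC4332483. Just outside it, LOC4330256 had 0.69, LOC4346179 0.67 and LOC4332421 0.66. LOC4346179 was left out by its root gap alone, since its leaf gap was 1.76. At a gap of 0.5 the rule would have given 142 probe sets and at a gap of 1 it gave 44.

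**Figure D3:**
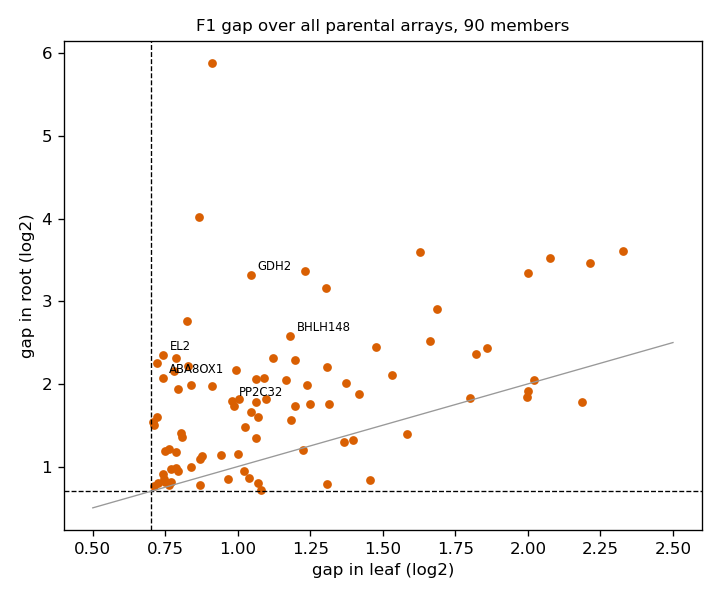
Gap in leaf (x axis, log2) against gap in root (y axis, log2) for the 90 members, with 1 point per probe set. Dashed lines mark the threshold of 0.7 and the grey line equal gaps. Most points lie above the grey line (75 of 90), and the highest root gap is 5.88.

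Each tissue gave its own number of probe sets by this rule: 303 in leaf (0.529% of all) and 1429 in root (2.5%). The 97 found in both, names kept, made up 32.0% of the leaf list and 6.79% of the root list. Leaf and root values came from different arrays. Both lists were read on the same probe sets and share whatever a probe set brings with it, such as its brightness, and the overlap is given as a count without a test.

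Because the rule used both replicates, it was also applied to 1 replicate of every group and read on the other. Chosen on the replicate 1 arrays, 476 probe sets passed. On the replicate 2 arrays 121 of these (25.4%) again had a gap of 0.7 or more in both tissues, against 1.37% of all rice probe sets, and 204 lay above both parents in both tissues. In leaf the share was 33.2% (7.18% of all) and in root 51.0% (10.7% of all). Chosen on replicate 2, 762 passed, and on replicate 1 the shares were 15.9% in both tissues (0.851% of all), 21.1% in leaf (4.63%) and 47.1% in root (9.59%). A choice on single arrays came back more often in root than in leaf, but the share over all probe sets was higher in root as well. Most probe sets chosen on 1 array per group did not pass again in leaf. The 90 members are among both lists, and among the 121 that passed again, by construction. These shares describe choices made on single arrays and give no support for the 90 members.

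Parents were compared next, since the rule did not set one against the other. It did bound the highest parental array, so members with a large spread among parents are under-represented. In leaf, 6 of 90 members (6.67%) differed between C bao and Jamaica by limma at an adjusted p below 0.05, 3 higher and 3 lower in C bao. Of the 42974 probe sets tested 11.9% did, 7.46% higher and 4.39% lower. In root, 3 members (3.33%) differed, all lower in C bao, against 4.7% of all (2.39% higher and 2.31% lower). At an unadjusted p below 0.05 the numbers were 20 in leaf (22.2%, against 27.0% of all) and 15 in root (16.7%, against 16.3% of all). A parental group passed the filter on low signal for 87 members in leaf and 81 in root.

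ABA8OX1 and BHLH148 were among the members lower in C bao leaf. The ABA8OX1 mean was 1005 ± 247 in C bao leaf and 2324 ± 623 in Jamaica leaf (SD, n = 2 each), a log2 difference of -1.19 (SE 0.24, limma adjusted p = 0.0113). For BHLH148 the means were 476 ± 40.4 and 1163 ± 145, a difference of -1.26 (SE 0.29, limma adjusted p = 0.0195). In root the difference was -0.06 for ABA8OX1 and -0.25 for BHLH148, and neither passed. Whether the parental difference itself differed between tissues was tested and did not pass (limma adjusted p = 0.102 and 0.195). The BHLH148 call was lost without any 1 of the 4 parental leaf arrays (adjusted p 0.0617 to 0.103). That of ABA8OX1 was lost without C bao replicate 1 (0.1125), without Jamaica replicate 1 (0.0899) and on leaf arrays alone (0.0802).

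The probe set of rank 51 was the third member lower in C bao leaf, with 41.9 and 40.7 in C bao against 157 and 481 in Jamaica (log2 difference -2.36, SE 0.53, limma adjusted p = 0.0176). This call was lost without either C bao leaf array, without Jamaica leaf replicate 2, on leaf arrays alone and with a pseudocount of 1 (limma adjusted p 0.0693 to 0.101). Higher in C bao leaf was LOC4340377, with 1839 and 1519 against 588 and 791, a difference of 1.27 that passed under every alternative run. LOC4330788 gave 438.5 and 373 against 108 and 190.5 (difference 1.39). That call was lost without either C bao leaf array, without Jamaica leaf replicate 1 and on leaf arrays alone (limma adjusted p 0.0582 to 0.117). A further one, the probe set of rank 21, was close to the threshold (1.66, limma adjusted p = 0.0484) and passed in only 6 of 22 alternatives.

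In root, LOC4326000 differed most between the parents, with 295 and 290.1 in C bao against 1392 and 1332 in Jamaica (log2 difference -2.16, SE 0.35, limma adjusted p = 0.00432). F1 roots of this gene gave 2742 and 2401, about the distance of the threshold above Jamaica. Both the probe set of rank 55 (-1.73) and LOC4345706 (-1.41) were likewise lower in C bao root. Both calls were lost without C bao root replicate 2 (limma adjusted p = 0.108 and 0.16) and without either Jamaica root array (0.0785 to 0.134). The count in leaf became 1 without C bao leaf replicate 1, 2 without C bao leaf replicate 2 or without Jamaica leaf replicate 1, 14 without Jamaica leaf replicate 2 and 11 without either F1 leaf array. The count in root became 1 without Jamaica root replicate 1.

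LOC4330788 was the 1 member whose parental difference differed between tissues. C bao was higher than Jamaica in leaf (438.5 and 373 against 108 and 190.5), and in root C bao gave 109 and 181 and Jamaica 252 and 242. The difference of differences was 2.13 (SE 0.43, limma adjusted p = 0.0281), and 1.11% of members passed this test where 3.12% of all did. F1 signals were close in leaf and root, 1063 and 1003 and 1087 and 1174.

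Parental leaf and root were compared over both cultivars, since the rule did not set leaf against root. It did set the F1 against the highest parental array within each tissue. Neither the parental nor the F1 levels compared here are therefore independent of the choice. Of the 90 members, 40 (44.4%) were higher in leaf and 7 (7.78%) lower, where 20.9% and 21.0% of all probe sets tested were. The median leaf minus root difference was 0.51 among members and 0.03 among all. In the F1, 18 members (20%) were higher in leaf and 13 (14.4%) lower, against 13.4% and 16.4% of all, with medians of 0.16 and -0.16. With each array centred on its median, the F1 split was 19 higher and 9 lower. Of the 40 members higher in parental leaf, 32 (80.0%) had a difference above 0 in the F1, where 90.9% of all probe sets higher in parental leaf had.

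PP2C32 was among those higher in leaf in both comparisons, by 1.54 in the parents (SE 0.15, limma adjusted p = 8.41e-06) and by 1.01 in the F1 (SE 0.21, limma adjusted p = 0.0038). BHLH148 was higher in parental leaf by 1.76 (limma adjusted p = 4.04e-05), and its F1 difference of 0.63 did not pass (limma adjusted p = 0.132). ABA8OX1 and EL2 were higher in parental leaf by 0.61 and 0.72 (limma adjusted p = 0.0142 and 0.0324), whereas in the F1 their differences of -0.09 and -0.63 did not pass. GDH2 differed little between parental tissues (0.08, limma adjusted p = 0.791) and was lower in F1 leaf than in F1 root by the fitted difference of -2.02 (SE 0.29, limma adjusted p = 0.000402).

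The largest parental differences in favour of leaf were those of the probe set of rank 14 (3.24), LOC4335798 (2.45), the probe set of rank 51 (2.19) and LOC4330027 (2.10). In the F1 the first and the last of these stood at 1.46 and 0.58, and neither passed. LOC4330027 gave 470.3 to 836 in parental leaf and 58.1 to 185 in parental root, while the F1 gave 1489.8 and 1388 and 943 and 974. Lower in parental leaf were the probe set of rank 21 (-1.74), the probe set of rank 60 (-1.57), LOC4347744 (-1.40) and the probe set of rank 39 (-1.28). These 8 differences passed under every alternative run.

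Within the F1, LOC4337638 (2.47), LOC4327611 (2.36), LOC4345456 (1.71) and LOC4340670 (1.41) were the most leaf-biased of the members that passed, while LOC4335798 (1.90) and the probe set of rank 14 (1.46) did not pass. LOC4337638 gave 1318 and 1865.5 in F1 leaf and 283 and 257 in F1 root. For LOC4345456, parental and F1 differences were nearly equal (1.71 and 1.71). The most root-biased that passed were the probe set of rank 39 (-2.44), LOC4327059 (-2.12), LOC4345515 (-2.09) and GDH2. LOC4345515 gave 295 and 537.5 in F1 leaf and 1595.5 and 1922.5 in F1 root, over parental ranges of 36.1 to 116 and 73.1 to 140.0.

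In both comparisons together 27 members passed. Of the 90, 18 (20%) were higher in leaf in parents and F1, 7 (7.78%) lower in both and 2 (2.22%) opposite, where 11.9%, 12.3% and 0.23% of all probe sets tested were. The opposite ones were the probe set of rank 51 (2.19 in the parents, -1.80 in the F1) and LOC4341816 (1.0 and -1.01), the latter named after its values were seen. LOC4341816 had 187.5 to 245 in parental leaf and 39.1 to 183.5 in parental root, with 433 and 463 and 966 and 874 in the F1. The F1 count of 31 fell to 19 without F1 leaf replicate 2 and to 16 without either F1 root array. The parental count of 47 ran from 39 to 49 with any single array left out.

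**Figure D4:**
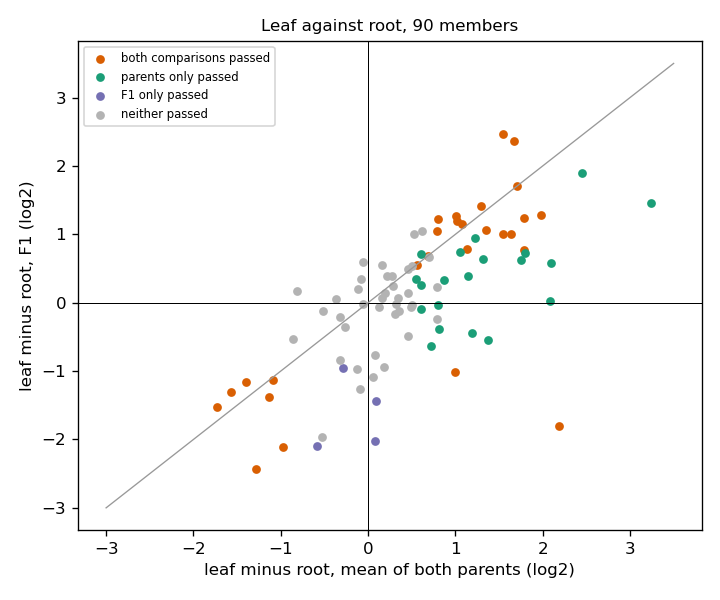
Leaf minus root log2 difference in the mean of both parents (x axis) and in the F1 (y axis) for the 90 members, with 1 point per probe set and colours for the comparisons that passed limma's test at an adjusted p below 0.05. The grey line marks equal differences. More members lie right of 0 (67) than above 0 (51), and the 2 orange points at lower right passed in opposite directions.

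Within groups, members moved together between replicates in leaf, a pattern noticed after the values were seen. On C bao leaf replicate 2, 73 of 90 members (81.1%) were lower than on replicate 1, with a median of -0.34, where 47.7% of all probe sets tested were lower. On Jamaica leaf replicate 2, 73 (81.1%) were higher, with a median of 0.49, where 47.8% of all were higher. Both held for 60 members (66.7%) and for 26.7% of all. F1 leaf replicate 2 was the higher for 67 members, with a median of 0.24, and in root the higher replicate was replicate 2 for 57 members in C bao, 43 in Jamaica and 61 in the F1. EL2 shows it in Jamaica leaf (383 and 929), as does LOC4335798 (37.3 and 411). The 7 probe sets set aside by name went the same way for 6 of 7 in C bao leaf and for 6 of 7 in Jamaica leaf. The mean over genes of dividing cells was 8.74 and 9.07 on the C bao leaf replicates and 5.97 and 6.84 on those of Jamaica. On the F1 leaf replicates it was 9.14 and 6.18. No source names what separated the replicates, and a cause was not tested.

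The F1 leaf arrays differed by more than 1 on the log2 scale for 5 members (5.56%) and for 22.6% of all probe sets tested, and the F1 root arrays for 1 member (1.11%) and 10.9% of all. The rule favours probe sets that are high on both F1 arrays, so this is no independent measure. The widest split belonged to LOC4349058, named after its values were seen, with 457 and 43.7 on the F1 leaf arrays. Without F1 leaf replicate 1 the rule would give 230 probe sets and without F1 leaf replicate 2 it would give 141, while leaving out any other single array gave 91 to 116.

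**Figure D5:**
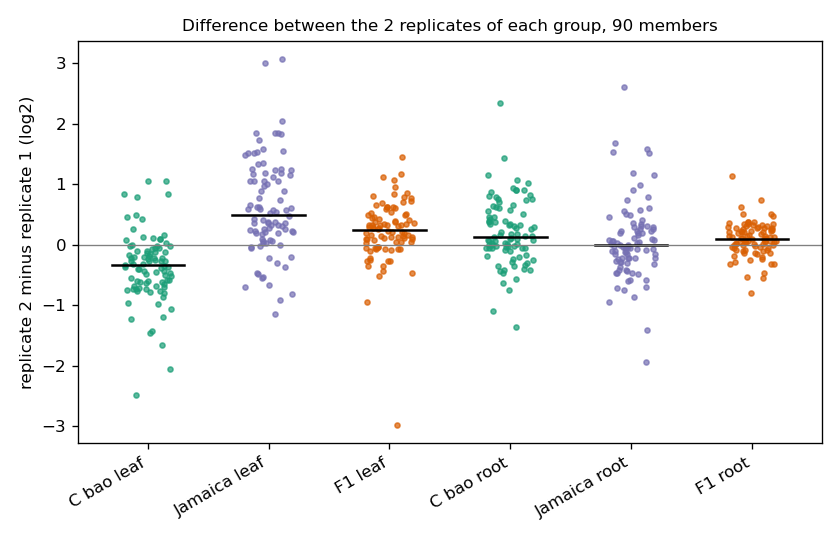
Replicate 2 minus replicate 1 (y axis, log2) in each of the 6 groups (x axis) for the 90 members, with points for probe sets and bars for medians. The medians are -0.34 in C bao leaf and 0.49 in Jamaica leaf, and the lowest F1 leaf point is LOC4349058 at -2.98.

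Position and probe design were checked for what the members share. Among the 62 genes, LOC4326919 and LOC4326920 are neighbours with 0 genes between them in the RefSeq order of assembly ASM3414082v1, as are LOC4346786 and LOC4346787. LOC4330780 and LOC4330788 have 5 genes between them. LOC4326919 gave 618 and 781 in F1 leaf and 588 and 841 in F1 root, against 101 to 263 and 23.2 to 189 in the parents. LOC4346786 gave 258 and 290.3 and 366 and 454.5, against 50.1 to 138 and 6.4 to 66.4. Both genes of the adjacent pairs were thus members on probe sets of their own, and whether they share sequence was not tested.

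Other probe sets of the same genes gave a second reading. There were 16 such probe sets for 13 member genes, and 6 of them had both gaps above 0, as had 1.41% of all rice probe sets. Leaf gaps were above 0 for 7 (5.54% of all) and root gaps for 10 (16.1% of all). Among the 6, those of GDH2, EL2 and LOC4325617 differ from a member's identifier only in the suffix. The pair for LOC4339200 differ from each other in the same way, so these need not be independent readings. The gene LOC4337638 had a second probe set with gaps of -0.64 and -0.26, and LOC4334438 one with gaps of -0.99 and -0.12. Another probe set had both gaps below 0 also for LOC4330780 (-0.27 and -0.58), LOC4337457 (-0.12 and -0.09) and LOC4336717 (-0.86 and -1.46, below the filter). For these genes that other probe set did not bear out the member status in either tissue. Another probe set had the leaf gap alone below 0 for LOC4325662 (-0.47), LOC4327895 (-0.12), LOC4349058 (-0.52) and GDH2 (-0.07). Both LOC4339101 and LOC4325617 had 2 member probe sets. By suffix, 11 members ended in _x_at (12.2%, against 12.5% of all) and 6 in _s_at (6.67%, against 4.94%), kinds of probe set that may read several transcripts. OsAffx probe sets, a designed class of the array, made up 22.2% of members and 44.5% of all.

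Relatives of ABA8OX1, PP2C32 and BHLH148 were followed through gene lists by symbol, together with lists of other gene families. None of the list genes counted here was a member. The contrast was the F1 against the mean of both parents, which called 0.982% of all probe sets higher and 0.233% lower in leaf, and 3.37% higher and 1.69% lower in root. Each list gene had a name and was read on its probe set of highest mean. Shares over all probe sets also count unnamed ones and several per gene, so the list shares and these are not like for like. Over the 330 list genes tested, 17 were higher (5.15%) and 1 lower (0.303%) in leaf. In root 43 were higher (13.0%) and 13 lower (3.94%), and 11 were higher in both (3.33%, against 0.572% of all). At an unadjusted p below 0.05, 12.4% of all probe sets differed either way in leaf and 18.4% in root. The median list gene stood at 0.10 in leaf and 0.10 in root, with -0.02 and 0.12 over all probe sets. With each array centred on its median, the root median of all probe sets moved to -0.13 and the root calls were 34 higher and 34 lower, so that the split depended on the scaling. The lists hold 5 of the genes set aside by name, of which 4 were higher in leaf and 5 in root, and the gap rule had itself chosen these. Without them 13 of 325 list genes were higher in leaf (4.0%), 38 in root (11.7%) and 7 in both (2.15%). Lists and members were read on shared control arrays.

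Of the relatives of ABA8OX1, 28 other cytochromes P450 were tested and 0 passed limma's adjusted threshold in leaf (3 at an unadjusted p below 0.05), while 3 rose in root. These were AOS, allene oxide synthase of jasmonate synthesis (log2 difference 1.68, SE 0.23, limma adjusted p = 0.00212), ABA8OX2, a second abscisic acid hydroxylase (1.36, SE 0.25, limma adjusted p = 0.00973), and CYP734A6 (1.04, limma adjusted p = 0.0453). ABA8OX2 in leaf was at -0.36 and did not pass (limma adjusted p = 0.6). Neither of the 2 genes for abscisic acid synthesis or receptors passed in either tissue, also at an unadjusted p below 0.05.

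Around PP2C32, 54 other protein phosphatases 2C were tested, of which 2 rose in leaf, and 5 rose and 2 fell in root. PP2C59 rose most in root (4.14, SE 0.63, limma adjusted p = 0.00347), with 861 ± 194 in F1 root against 53.4 ± 25.5 in C bao and 22.6 ± 18.8 in Jamaica (SD, n = 2 each). In leaf PP2C59 did not pass (0.92, limma adjusted p = 0.595). BIPP2C2 rose in both tissues, by 0.91 in leaf and 0.81 in root. PP2C12 rose against the parental mean in leaf by 1.54, but its F1 mean of 4713 lay between 458 in Jamaica and 5570.45 in C bao. Among relatives of BHLH148, 10 other bHLH factors were tested and 0 passed limma's threshold in leaf or root, with 0 also at an unadjusted p below 0.05.

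Calcium sensors and the kinases they control formed the largest list, 75 genes with 6 rises and 0 falls in leaf, and 12 rises and 3 falls in root. Without CML15 and CML31, which the gap rule had chosen, 4 of 73 rose in leaf and 10 in root. CML14, a calmodulin-like protein, rose by 1.62 in leaf and 1.87 in root, and CML18 by 1.08 and 1.03. CIPK14, a kinase bound by calcineurin B-like calcium sensors, rose in root (2.02, SE 0.25, limma adjusted p = 0.00106) and was at -0.12 in leaf. Among 11 AP2/ERF factors, the family of the DREB1 cold regulators, 3 rose in leaf and 4 in root, all of them DREB1 genes or CBF3. DREB1B, DREB1E and CBF3 had passed the gap rule itself, and without them 1 of 8 rose in each tissue, DREB1G (2.07 in leaf, 3.0 in root). Of 10 MYB factors 2 rose in leaf, and 2 rose and 2 fell in root. MYB2 rose in both tissues, by 1.57 in leaf and 2.52 in root, LTR1 rose in leaf (1.54), MPH1 rose in root (1.42), and MYBAS1 (-1.24) and myb17 (-1.36) fell in root. Of 9 genes of trehalose synthesis 1 rose in leaf and 3 in root. TPP1, a trehalose phosphate phosphatase, rose by 1.59 in leaf (SE 0.16, limma adjusted p = 0.00124) and by 2.62 in root (SE 0.16, limma adjusted p = 3.03e-05). Its F1 leaf mean was 4361 against 796 in C bao and 2571 in Jamaica, and its leaf gap of 0.61 left it just outside the group.

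Of 10 lectins and chitinases 0 passed limma's threshold in leaf (0 at an unadjusted p below 0.05) and 4 rose in root, among them the lectin Agglutinin, whose mean was 8398 ± 1527 in F1 root, 64.4 ± 18 in C bao root and 106 ± 40.6 in Jamaica root. Of 52 zinc finger proteins 1 rose in leaf, SAP11 (1.33), and 5 rose and 1 fell in root. Of 18 bZIP factors 1 fell in leaf and 3 fell in root. Of 6 WRKY factors 1 rose in leaf and 1 in root. Of 8 NAC factors 1 rose in leaf, and 1 rose and 1 fell in root. Of 3 genes of ethylene synthesis 0 passed limma's threshold in leaf (1 at an unadjusted p below 0.05), and ACO1 rose in root (4.32). Sugar transporters gave 0 calls by limma in leaf (1 at an unadjusted p below 0.05) and 2 rises and 1 fall in root over 13 genes, with SWEET12 rising by 5.02. Among 8 U-box and RING ligases, 4 GRAS factors, 3 receptor-like kinases and 6 glutathione transferases, 0 of 21 genes passed limma's threshold in either tissue (4 in leaf and 4 in root at an unadjusted p below 0.05). The count of list genes passing in leaf was 18 and ranged from 9 without C bao leaf replicate 2 to 33 without F1 leaf replicate 1. It was 11 without either F1 root array. In root it was 56, and 36 without C bao root replicate 2, 19 without F1 root replicate 1 and 21 without F1 root replicate 2.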

How the data were processed

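Per the labels' protocols, total RNA from leaf and root went through RNeasy columns and the one-cycle labelling kit of Affymetrix. The deposited values are intensity signals on a linear scale, made with MAS5 per the submitters' processing notes. The authors had scaled the arrays, whose 2% trimmed means lay between 500.06 and 500.08, and values ran from 0.1 to 57846. Probe-level files and detection calls were not used here. Scanner, software version and scan dates are not given in the sources used here.

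Of all probe sets, 123 controls were left out. The signals were taken as log2(signal + 16), so that differences of dim probe sets are understated. The members and gene lists were chosen with earlier results of these data known. For tests, a probe set was kept when its mean exceeded 5.59 (a signal of 32.2, found by averaging each array's 40th percentile) in at least 1 of 6 groups, which left 42974. All 12 arrays entered 1 limma fit (version 3.58.1, R 4.3.3) of 6 group means. Variances were moderated with eBayes and its trend option, with 6 residual degrees of freedom and a prior of 4.581, and Benjamini-Hochberg adjusted p-values were read at 0.05. The script was checked on simulated arrays. Python 3.11.15 was used for the gaps, tables and plots.

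Probe sets were named from the platform annotation and a RefSeq table (assembly ASM3414082v1): 22436 had 1 gene, 95 several and 34727 are not listed. The 17905 genes were all found in RefSeq, 2459 with a name other than a locus number. Gene order along that assembly was used to find neighbouring members, and sequences were not used here. Named in the text are the 12 members with the largest smaller gap and all members with a gene name. Also named are up to 4 passing members each way per test and 3 probe sets on each side of the threshold. From the lists some passing genes are named, not always those with the largest differences. A list gene was read on its probe set of highest mean. Several lists had no matching symbol and were left out.

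The settings varied were the scaling (quantile, or centring on the median), the pseudocount (1 or 64), the gap threshold, the filter (none, or the 60th percentile), the trend, array weights, a replicate block, fits of each tissue alone and the arrays used (each left out in turn, or 1 replicate only). Same-numbered replicates did not deviate together (correlations from -0.17 to 0.08, 0 of 15 over 0.1), so the numbers were not taken as pairs.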

Additional observations from a re-analysis of the deposited data

Results flagged for a closer look

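LOC4330788 stood out because the difference between C bao and Jamaica was not the same in leaf and root. The leaf minus root value of that difference was 2.13 on the log2 scale, tested as an interaction (SE 0.43, limma adjusted p = 0.0281), with both C bao arrays above both Jamaica arrays in leaf and below them in root. The result passed in 11 of 21 alternatives, with adjusted p between 0.0101 and 0.12 over all of them.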

How the results depend on the processing

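The 90 probe sets became 142 at a gap of 0.5 and 44 at a gap of 1, and 476 or 762 when only replicate 1 or only replicate 2 arrays were used. With 1 array left out the count was 91 to 230. Quantile scaling gave 76 (70 of the 90 among them), median centring 78 (76), a pseudocount of 1 gave 111 (90) and of 64 gave 70 (70). The cause of these shifts was not tested, except that a lower gap or fewer arrays admits more probe sets by construction.

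Members that differed between parental leaves numbered 6, 2 on leaf arrays alone and 1 to 14 with 1 array left out. In parental roots the 3 became 7 with array weights, 9 on root arrays alone and 1 to 4 with 1 array left out. The 47 members that differed between parental leaf and root stayed within 39 to 49, and the 31 in the F1 ranged from 16 to 37. The 1 interaction became 6 with array weights, 3 with the 60th percentile filter, 0 without a trend and 0 with quantile scaling, and 0 to 6 with 1 array left out. List genes passing in leaf numbered 18, and 7 with array weights, 1 on leaf arrays alone, 11 without a trend and 9 to 33 with 1 array left out. In root the 56 became 89 with array weights, 101 on root arrays alone and 19 to 71 with 1 array left out. The cause was not tested.

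With the replicate number as a block, although the numbers gave no sign of pairing, the counts were 6 and 3 between parents, 46 and 28 between tissues, 1 for the interaction, and 15 and 51 for list genes. Of 26 single differences, 17 passed under every alternative, and over 555 alternatives 506 passed, 49 did not and 0 turned direction. Groups of 2 arrays, 1 shared estimate of spread and the uneven F1 leaf pair limit all tests, and low signals limit the members whose parental groups were below the filter.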
